A study of Mus musculus with 108 samples.

Results

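Single mouse oocytes of control females were compared before and after meiotic maturation by RNA-seq of total RNA depleted of ribosomal RNA, a library type that does not select RNA by its polyA tail. The comparison rests on 11 of the 108 samples of the series, chosen by their labels. They are 8 fully grown oocytes at the germinal vesicle (GV) stage and 3 eggs arrested at metaphase of the second meiotic division (MII), all labelled as controls for an oocyte-specific knockout of Exosc10, which encodes a nuclease of the RNA exosome. The GV oocytes came from females V1132 and V1133, with 4 oocytes each, and were kept in culture in M2 medium. All 3 MII eggs came from the oviducts of 1 female, V1145, so stage, female and way of collection cannot be told apart. The labels used here give no strain, age or Cre driver. RNA was primed with random hexamers (Ovation Solo), and ribosomal RNA was depleted. For comparison, the text uses control oocytes sequenced after polyA selection (7 GV oocytes of 2 females, 8 MII eggs of 3 females) and knockout (cKO) oocytes sequenced without it (7 GV oocytes of 2 females, 4 MII eggs of 2 females). None of those libraries is shared with the control comparison.

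A fully grown oocyte is transcriptionally silent, and it matures into an egg with the mRNA it has stored. During maturation, stored mRNAs with a cytoplasmic polyadenylation element (CPE), a U-rich sequence near the polyadenylation signal that binds CPEB1, gain a longer tail and are translated, while many others lose their tail and are later degraded. A library that selects polyA tails therefore reads tail length together with RNA amount, and a library made without the selection is less exposed to the tail.

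Of the genes named by rule or held in the gene lists, 29 were lower at MII in total RNA and higher at MII after polyA selection, and 17 of these had a CPE (TTTTAT or TTTTAAT, read on the sense strand) in the 3′UTR within the last 150 bases of the gene's principal transcript model and a polyadenylation signal in the last 50 (58.6%). Among all genes with a usable 3′ end the share with a CPE was 26.4%, and it was 48.5% of those with the same pair of changes. The 29 include genes without a usable 3′ end, such as Cdc20, so these shares have a different base from the 58.6%. Obox1 and Obox2, near-identical genes with the same site, are both counted. Oosp1 had a CPE there and no such signal. The sites of 8 of them are shown because these genes recur in the results on the largest falls, MII arrest, oocyte markers and deadenylation; they were chosen after their values were seen. Each line gives bases of the 3′UTR in mm10, 5′ to 3′ on the transcript's strand, with the CPE in capitals.
Cdc20, chr4:118432923-118432952, minus strand: ttcctttcttgtTTTTATtttattttttct
Tubb3, chr8:123421910-123421939, plus strand: ttattcgtctgtTTTTATggtttgttttgt
Trafd1, chr5:121371772-121371801, minus strand: agcccctcccctTTTTATtttactgttcta
Spag5, chr11:78322409-78322438, plus strand: gagccgaccatgTTTTATgttatttaaata
Bub1b, chr2:118641553-118641582, plus strand: tttcactgtgtaTTTTATaataaaatagtt
H1foo, chr6:115950157-115950186, plus strand: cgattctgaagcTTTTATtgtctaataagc
Pan2, chr10:128321305-128321334, plus strand: taaaacagcatgTTTTATaaaataaaagta
Fbxo43, chr15:36150145-36150174, minus strand: gtatatatgtgtTTTTATactatacacaca
Such a match describes letters in the reference and does not show binding.

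The control libraries held 12319658 to 16800566 counts on genes at GV and 16220993 to 20447150 at MII. At the common depth of 12000000 counts, 20415 ± 366 genes were expected with at least 1 count in a GV oocyte (SD, n = 8; 19878 to 21152) and 17375 ± 170 in an MII egg (SD, n = 3; 17253 to 17569). The ranges did not overlap, and the exact two-sided permutation p of 0.0121 is the smallest that 3 eggs against 8 oocytes can give. In the knockout libraries the same measure ran from 20303 to 22848 at GV and from 19275 to 22188 at MII, with overlapping ranges. Exosc10 itself was at 93.0 to 154 counts per 1000000 gene counts in control GV oocytes and 78.7 to 98.8 in control MII eggs, against 0.811 to 8.49 and 0.431 to 3.48 in the knockout groups. Summed oocyte markers stood at 16000 to 20300 per 1000000 gene counts at GV and 18300 to 20000 at MII. Markers of cumulus and granulosa cells, which surround the oocyte, summed to 105 to 153 and 144 to 157. Of these 20 markers, 1 was at 0 in all GV oocytes and 9 were at 0 in all MII eggs. Single markers went different ways. Amh, a granulosa hormone, had 0 to 101 counts per GV oocyte and 0 in each MII egg, and the inhibin subunit gene Inha had 8 to 54 and then 0 to 1. Has2, which encodes a hyaluronan synthase of cumulus cells, had 5 to 27 and then 7 to 112 counts, the receptor gene Fshr had 0 to 38 and 0 to 40, and the aromatase gene Cyp19a1 had 320 to 551 and 204 to 446. Stroma and smooth muscle markers summed to 157 to 257 and 195 to 214, most of it Myh11, and blood markers to 8.07 to 19.2 and 10.8 to 15.8. Oviduct markers summed to 0.381 to 3.29 at GV and 2.11 to 8.71 at MII, and Hbb-bs and Hba-a1 of red cells were at 0 throughout. The part of these other cells in the results was not tested.

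**Figure D1:**
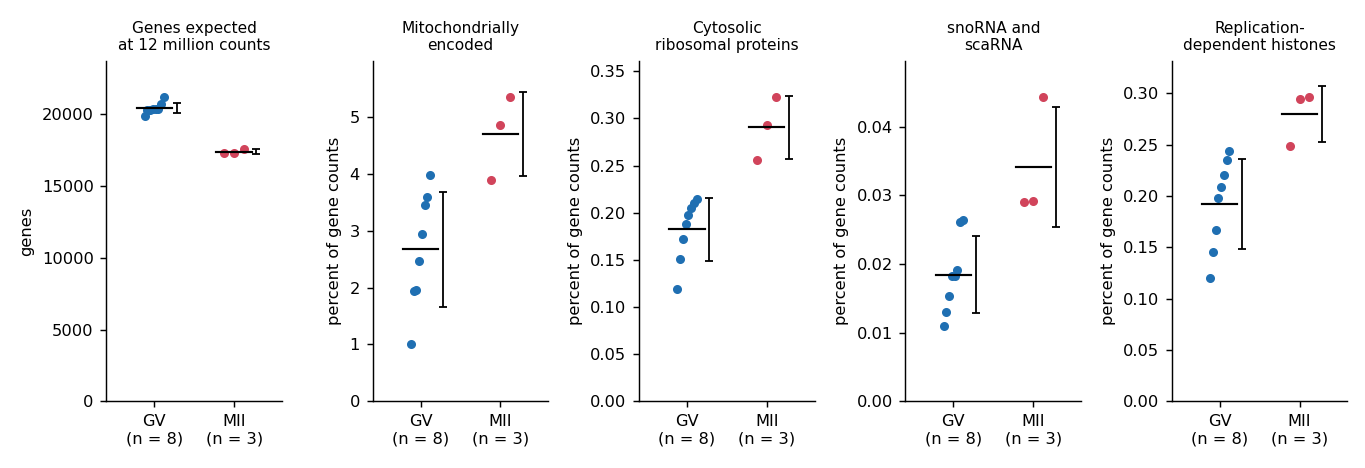
Genes expected at 12000000 counts, and shares of gene counts (percent) taken by mitochondrially encoded, ribosomal protein, snoRNA and scaRNA, and histone genes, in the 8 control GV oocytes (blue) and 3 MII eggs (red) without polyA selection. Points are oocytes, lines are means and bars are 1 SD; the eggs lie below all GV oocytes in genes and above all of them in the shares of ribosomal protein, snoRNA and histone genes.

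Across all genes, many relative levels differed between the MII eggs of V1145 and the GV oocytes, in both directions. Of 16340 genes tested with edgeR's quasi-likelihood test (Benjamini-Hochberg adjusted p under 0.05), 5042 were called, or 30.9% of those tested. Of these, 2459 genes were higher at MII (15.0%) and 2583 lower (15.8%), and the median change of all genes was -0.03 on the log2 scale. The balance depends on the scaling. Scaled by library totals, 2129 were higher and 2910 lower, with a median of -0.10. At least a 2-fold change was reached by 1204 of the higher and 1290 of the lower genes. In 1883 genes all 3 MII eggs were above all 8 GV oocytes (11.5%), and in 1882 all 3 were below (11.5%). No external standard was counted, so each change is a change in the share of the RNA and not in the amount per oocyte. The p-values measure the spread between oocytes, and oocytes of 1 female are not independent. In a fit that summed the counts of each female, with 4 GV and 3 MII females of both genotypes and a term for genotype, 104 genes were called, 24 higher and 80 lower, of which 103 had been called in the same direction in the controls. This fit was chosen after seeing the data and includes the control libraries. Without the oocytes of V1132, 3098 genes were called. Between the GV females V1132 and V1133, 22 of 14808 genes were called (0.149%), and 62 with DESeq2.

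Few low-abundance genes were called higher. Among the 1968 genes with a mean under 0 on the log2 CPM scale (CPM, counts per 1000000 gene counts, scaled with TMM factors), 270 fell and 22 rose, shares of 13.7% and 1.1%, against 15.8% and 15.0% of all genes. The filter on low counts asks for reads in as many libraries as the smaller group holds, so a gene seen at GV alone had to be present in 3 of 8 oocytes and one seen at MII alone in all 3 eggs, and these counts depend on that. Without the filter, 2645 genes were called higher and 2487 lower. Of the 1898 genes with a mean over 7, 546 fell and 492 rose. With the same dependence on the filter, 212 genes called lower had 0 counts in every MII egg, and 1 gene called higher had 0 counts in every GV oocyte. Only 10 of the 212 had at least 10 counts in every GV oocyte. Among these, 4931408C20Rik had the highest GV mean, 35.8 ± 21.6 CPM (SD, n = 8), and was at least 210-fold lower at MII, against a floor of 3 counts per egg. Arhgap9, which encodes a GTPase-activating protein, had 4.33 ± 1.86 CPM at GV and was at least 25.4-fold lower at MII. Adra2b, an adrenergic receptor gene, had 2.87 ± 0.591 CPM at GV and was at least 16.8-fold lower.

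Genes were named for their rise or fall if they were called, had a mean of at least 5 on the log2 CPM scale and had all 3 eggs outside the range of the GV oocytes. The largest rise was that of Me1. Me1 (chr9:86581371-86695953, mm10), which encodes cytosolic malic enzyme, lay at 13.3, 21.8 and 25.9 CPM (lowest, median and highest of 8 GV oocytes) and at 227, 264 and 225 CPM in the 3 MII eggs. The ranges were far apart, a rise of 3.49 ± 0.16 on the log2 scale (SE; adjusted p = 1.56e-11, edgeR). Gstm5, a glutathione S-transferase, went from 10.3, 15.8 and 25.1 CPM to 188, 185 and 178 CPM, a log2 change of 3.41 ± 0.18 (adjusted p = 2.61e-10, edgeR). Ldhb, the lactate dehydrogenase subunit that oocytes use to turn lactate into pyruvate, lay at 275, 381 and 532 CPM in GV oocytes and 1480, 1781 and 1896 CPM in the eggs. Its log2 change was 2.15 ± 0.15 (adjusted p = 4.42e-09, edgeR). Swi5, a recombination factor, rose by 2.93 on the log2 scale, from a GV median of 20.2 CPM to 168, 159 and 155 CPM. Tpt1 and Tmsb10, short mRNAs for the translationally controlled tumour protein and a thymosin, rose by 2.86 and 2.66. The other genes with the largest rises were Pdia3 (2.37), a disulfide isomerase of the endoplasmic reticulum, Ifitm6 (2.36), the prefoldin subunit Pfdn5 (2.36), Gnrh1 (2.20), the ubiquitin-like Nedd8 (2.10) and Pinlyp (2.06). For each of these 12 genes, the lowest MII egg was above the highest GV oocyte. In the fit over 7 females each of the 12 had a positive change, of which none passed the threshold (adjusted p = 0.0582 for Gnrh1 to 0.378 for Me1, edgeR).

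By the same rule, the named falls included Cdc20 and Mos. Cdc20 (chr4:118432901-118437352, mm10), the activator of the anaphase-promoting complex, went from 40.1, 65.0 and 72.0 CPM (lowest, median and highest of 8 GV oocytes) to 8.27, 6.83 and 4.30 CPM in the 3 eggs, 9.31-fold lower (log2 change -3.22 ± 0.26, SE; adjusted p = 2.65e-08, edgeR). Mos, the kinase upstream of MAP kinase that holds the egg at metaphase, stood at 362, 424 and 524 CPM at GV and 115, 104 and 122 CPM at MII. It fell by 1.93 on the log2 scale (SE 0.14; adjusted p = 1.22e-08, edgeR). Further falls were those of the neuronal tubulin gene Tubb3 (-2.34), the cytokinesis kinesin Kif20a (-2.10) and the spindle protein gene Spag5 (-1.99). Tubb3 had 293 to 455 CPM in GV oocytes and 77.1, 68.4 and 75.4 CPM in the eggs. Kif20a had 197 to 257 CPM in GV oocytes and 53.6, 45.2 and 62.1 CPM in the eggs, and Spag5 had 69.1 to 82.8 CPM and then 24.1, 15.2 and 19.0 CPM. Others were the signalling regulator gene Trafd1 (-2.20), with 79.1 to 122 CPM and then 20.8, 23.3 and 24.2 CPM, the arginine methyltransferase gene Prmt7 (-2.08), the F-box gene Fbxl6 (-2.06), the ubiquitin ligase gene Rfwd3 (-2.02), Pacsin1 (-1.99) and the laminin chain Lamc1 (-1.98). Lamc1 was the least even of them, at 73.7 to 338 CPM over the GV oocytes. In the fit over 7 females Spag5, Kif20a, Rfwd3 and Prmt7 remained called (adjusted p = 0.0146, 0.0409, 0.0457 and 0.0479, edgeR), Lamc1 had a change of 0.42, and the other 6 named here were lower without a call.

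**Figure D2:**
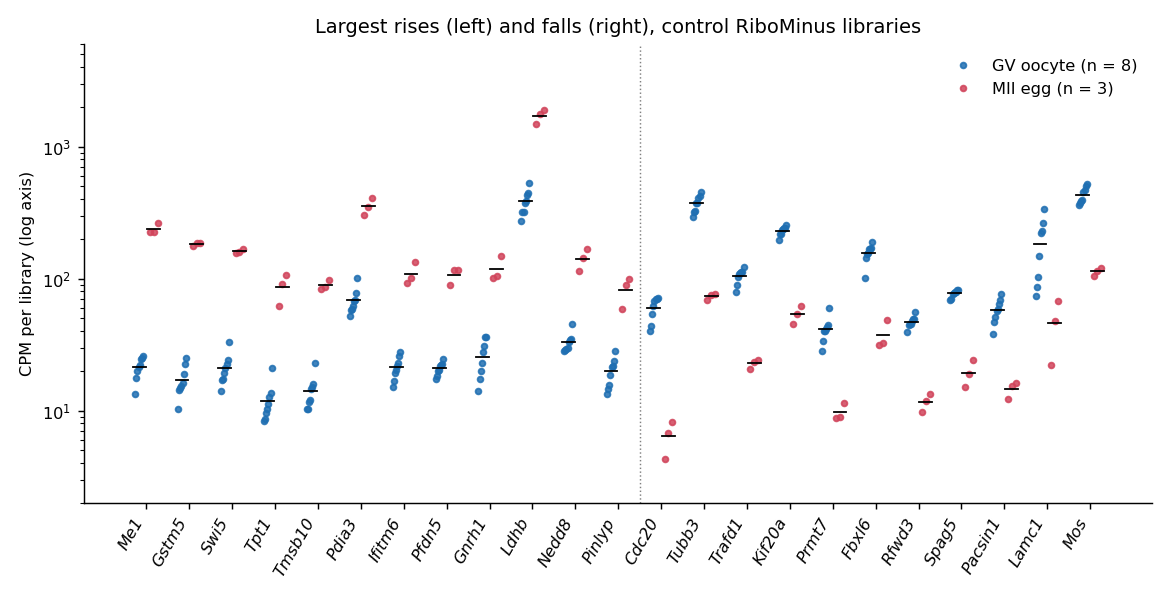
Levels of genes with the largest rises and falls (CPM, log axis) in each of the 8 GV oocytes and 3 MII eggs of the control comparison. GV oocytes are blue, MII eggs red and lines are means; for every gene the points of the 3 eggs lie outside the range of the 8 oocytes, which the rule for choosing them required.

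Among genes with clone or predicted names that met the same rule, the largest rises were Gm28438 (2.31), Gm45587 (1.98) and Gm20721 (1.87 on the log2 scale), and the largest falls were AU022751 (-2.21), BC055324 (-1.86) and E330021D16Rik (-1.78). AU022751 and E330021D16Rik were abundant, with GV medians of 1102 and 1108 CPM, and had 337, 165 and 265 CPM and 347, 309 and 270 CPM in the 3 eggs. Gm28438, at chr1, may share reads with near-identical mitochondrial genes, so its level is uncertain.

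The levels of some of these genes varied between females as much as between stages. Me1 was the clearest case. Its mean was 22.1 and 20.5 CPM in the control GV females V1132 and V1133 and 238 CPM in V1145, but 158 CPM in GV knockout female V1126 and 7.80 CPM in V1131. At MII it was 222 CPM in knockout female V1166 and 14.1 CPM in V1167. After polyA selection it was 227 and 224 CPM in the 2 control GV females and 27.1, 21.9 and 196 CPM in the 3 MII females. Oocytes of 1 female lay close together, so Me1 took a high or a low level by female at either stage. Between V1132 and V1133, Lamc1 differed 2.56-fold, at 263 and 103 CPM (log2 difference -1.37, adjusted p = 0.00301, edgeR). Prmt7, in contrast, was lower in the MII females than in all GV females in each of the 3 sets. Over the 24 genes with the largest rises and falls, females of the same group had a 2-fold difference for 1 gene in control GV oocytes. The number was 2 in knockout GV oocytes and 4 in knockout MII eggs. After polyA selection it was 0 in control GV oocytes and 7 in control MII eggs. The last group has 3 females and the others 2, so the counts are not directly comparable. The rule that chose the 24 genes used the range of the control GV oocytes, and the share over all genes is not given.

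**Figure D3:**
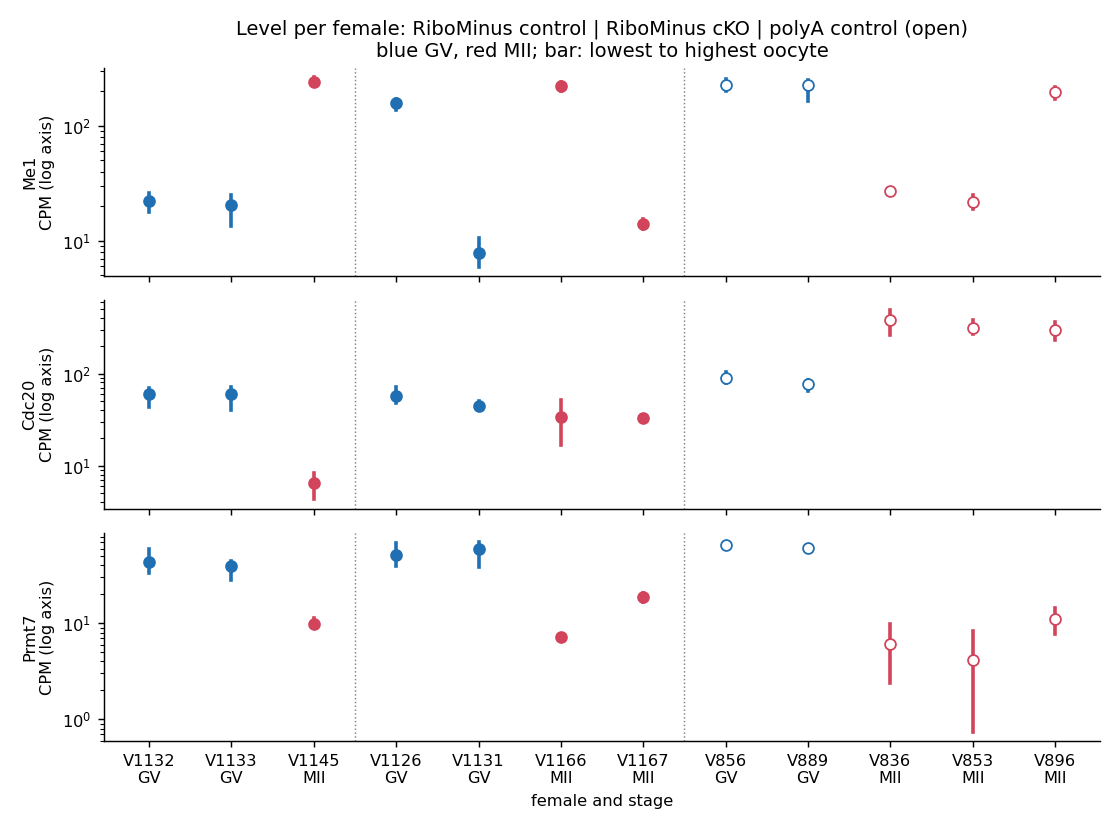
Mean level in each female (CPM, log axis) of Me1, Cdc20 and Prmt7 in control and knockout oocytes without polyA selection (filled) and control oocytes with it (open), GV in blue and MII in red, with bars from the lowest to the highest oocyte. Me1 is high in some females and low in others at both stages, and Prmt7 is lower in the MII females of each set.

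Over all gene lists without the Zfp genes, 303 genes were called, and in the fit over 7 females 5 were. The genes of the cell cycle and of MII arrest changed in both directions. Of 33 tested, 9 rose (27.3%, against 15.0% of all genes) and 12 fell (36.4%, against 15.8%), with a median of -0.13 (log2). Besides Cdc20 and Mos, the falls included Bub1b, a kinase of the spindle checkpoint, with 1043 to 1495 CPM in GV oocytes and 456, 374 and 318 CPM in the eggs (-1.73), and Fbxo43, which encodes the Emi2 inhibitor that holds MII arrest, with 158 to 223 CPM and then 86.7, 69.1 and 81.2 CPM (-1.27). Separase (Espl1, -1.20), Aurkc (-1.17), Mad2l1 (-0.95) and Map2k1 (-0.82) fell as well, and cyclin B1 (Ccnb1) fell by 0.41 with overlapping ranges. Securin (Pttg1), the inhibitor of separase, had 49.9 to 158 CPM in GV oocytes and 355, 284 and 377 CPM in the eggs, a rise of 1.93. Cdk1, the kinase that cyclin B1 activates, had 46.0 to 58.4 CPM and then 156, 165 and 133 CPM, a rise of 1.55. Mapk3, Cdc25b and Fbxo5 rose by 1.25, 1.05 and 0.87. Without the oocytes of V1132 or of V1133, the number that rose was 5.

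Genes of mRNA deadenylation and decay went in both directions. Of 32 tested, 6 rose (18.8%, near the 15.0% of all genes) and 9 fell (28.1%, against 15.8%), with a median of -0.26, and without the oocytes of V1133 the number that rose was 3. Pan2, a subunit of a deadenylase, had 155 to 227 CPM at GV and 75.4, 49.0 and 73.3 CPM at MII (-1.53), and the deadenylase subunit gene Cnot8 fell by 1.09. The decapping genes Edc4 and Dcp1a fell by 1.03 and 0.74, while the decapping enzyme gene Dcp2 rose by 0.57 and the deadenylase gene Cnot6l by 0.49. The uridylyltransferase gene Tut4 was rare, at 0.626 to 4.37 CPM in GV oocytes and at most 1 count in an egg. Btg4, which brings the deadenylase to mRNA during maturation, had 1279 to 1951 CPM in GV oocytes and 1242, 1348 and 1200 CPM in eggs (log2 -0.27, adjusted p = 0.105, edgeR). Of 30 genes of mRNA storage and translation control, 11 rose (36.7%) and 6 fell (20.0%), with a median of 0.07. Cpeb1, whose protein binds the CPE, had 754 to 1152 CPM at GV and 308, 227 and 284 CPM at MII (-1.66), and the polyA polymerase gene Tent2 fell by 0.95. Dazl, an RNA-binding regulator of translation, had 579 to 915 CPM at GV and 1319, 1129 and 1115 CPM at MII (0.72). Ybx1 (1.33), the cap-binding Eif4e (0.79) and the storage protein gene Ybx2 (0.64) rose too.

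Of 30 tested marker genes of the oocyte itself, 10 rose and 10 fell, 33.3% in each direction against 15.0% and 15.8% of all genes, with a median of 0.10. Ooep, of the subcortical maternal complex, had 469 to 881 CPM at GV and 2582, 2385 and 2287 CPM at MII, a rise of 1.92. The maternal factor Dppa3 (1.68), Oosp2 (1.52), the nucleoplasmin Npm2 (1.46), Padi6 (1.09) and the growth factor gene Bmp15 (0.80) rose as well. Khdc3 and Nlrp2, which like Ooep belong to maternal-effect genes, fell by 1.70 and 1.55, and the oocyte linker histone gene H1foo had 1449 to 2117 CPM at GV and 581, 560 and 622 CPM at MII (-1.59). The zona pellucida genes Zp2 and Zp3 had changes of 0.07 and -0.19, with overlapping ranges and no call. Obox1, Obox2 and Obox5 were called lower, but these near-identical genes may share reads.

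In the control comparison, more genes of energy metabolism and protein synthesis rose than fell. Knockout values of the respiratory chain and ribosomal protein genes are given further below. Of 94 tested nuclear genes of the respiratory chain and ATP synthase, 52 rose (55.3%, against 15.0% of all genes) and 4 fell (4.26%, against 15.8%), with a median of 1.02 against -0.03 for all genes. Ndufa5, of complex I, had 2.29 to 4.71 CPM at GV and 22.4, 18.9 and 20.1 CPM at MII (2.53), and Cox6c and Cox8a, of complex IV, rose by 2.43 and 2.40. Ndufv1 went the other way, with 43.0 to 65.2 CPM at GV and 14.3, 11.2 and 21.2 CPM at MII (-1.77). Of 77 cytosolic ribosomal protein genes, 26 rose (33.8%) and 5 fell (6.49%), with a median of 0.47, and many of these have processed pseudogenes that can take their reads. Without the oocytes of V1132 the ribosomal protein genes that rose numbered 17, and without either GV female those that fell numbered 1. Of 41 proteasome genes, 15 rose (36.6%) and 9 fell (22.0%). In the fit over 7 females (edgeR), 0 genes of the respiratory chain and 0 ribosomal protein genes were called higher, against 22 and 10 at an unadjusted p under 0.05. The list medians there were 0.36 and -0.05.

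**Figure D4:**
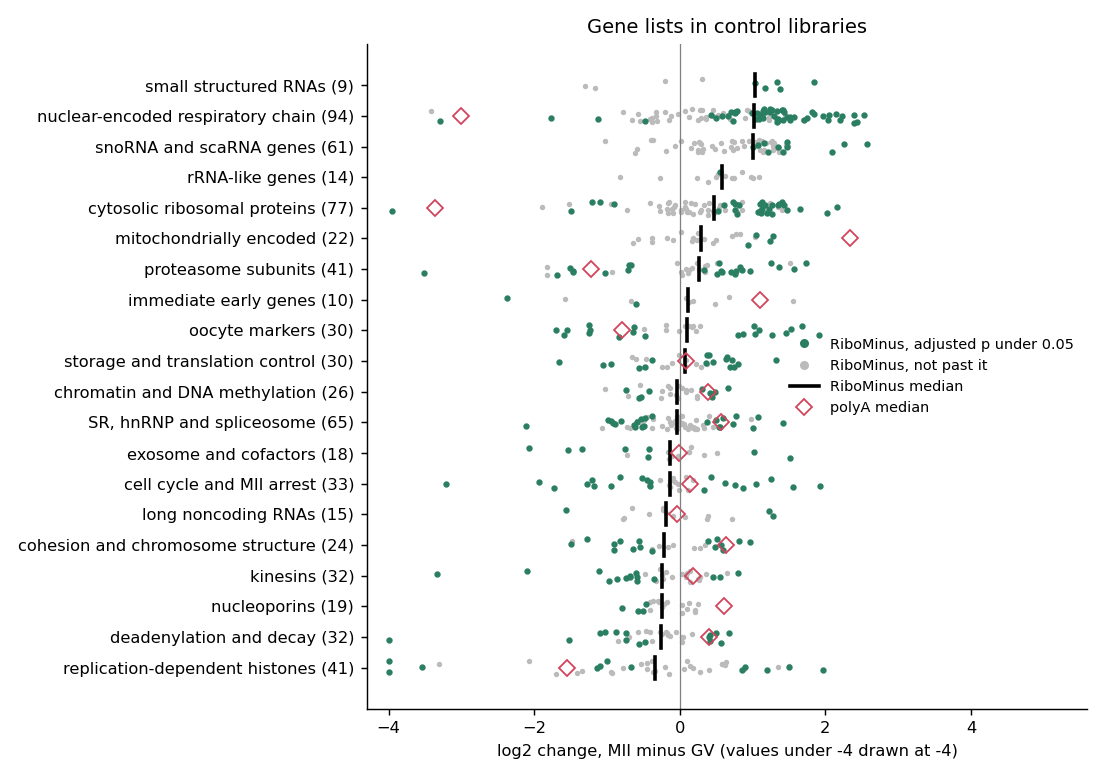
Change from GV to MII (log2) of the genes of each list in control oocytes without polyA selection, 1 point per gene, green where called, with the list median as a black bar and the polyA median as a red diamond. Numbers of tested genes are in parentheses; the respiratory chain has a median of 1.02 without polyA selection and -3.01 with it.

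Chromosome and chromatin genes were mixed. Of 24 genes of cohesion and chromosome structure, 7 rose (29.2%) and 9 fell (37.5%), against 15.0% and 15.8% of all genes. Kinesin genes fell in 12 of 32 cases (37.5%) and rose in 3 (9.38%), and Kif1c had the largest change of them, with 9.03 to 33.7 CPM at GV and 0.626, 3.74 and 1.10 CPM at MII (-3.34). Of 26 chromatin and DNA methylation genes, 5 rose and 4 fell, shares of 19.2% and 15.4% that are near those of all genes. Dnmt1, the maintenance methyltransferase, was among the 8 genes with the highest counts at GV and fell by 0.74, with 2726 to 4164 CPM at GV and 2065, 1909 and 1925 CPM at MII. Nucleoporin genes fell in 4 of 19 cases (21.1%). Splicing factor genes rose in 10 (15.4%) and fell in 14 (21.5%) of 65 cases, and without the oocytes of V1133 these counts were 6 and 6. Of 322 Zfp zinc finger genes, 22 rose and 49 fell, shares of 6.83% and 15.2%. Of 18 genes of the exosome and its cofactors, 2 rose (11.1%) and 6 fell (33.3%), with Exosc1 at 1.52 and Exosc6, a gene of under 4 CPM in every library, at -2.08. Exosc10 was called lower at -0.44 (adjusted p = 0.0312, edgeR). Immediate early genes, which report on recent stress or dissociation, fell in 2 of 10 cases. Of 15 long noncoding RNAs, 2 rose and 1 fell, and the nuclear Malat1 was the gene that fell, from 9.08, 40.9 and 102 CPM to between 11.1 and 20.6 CPM (-1.57). That call was lost when egg 2 of V1145, oocyte 2 or 3 of V1132, or oocyte 1 of V1133 was left out, and in DESeq2. Without the oocytes of V1132, the falls among exosome and nucleoporin genes numbered 3 and 2, and the rises among chromatin genes numbered 3 without any 1 of the 3 eggs.

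The snoRNA and scaRNA genes and the mitochondrially encoded genes took a larger share of the gene counts in the 3 eggs of V1145 than in control GV oocytes. Their knockout values are given further below. Of 61 snoRNA and scaRNA genes listed by name and tested, 11 rose (18.0%, near the 15.0% of all genes) and 0 fell (against 15.8%), with a median of 1.01. By annotated gene type, 22 of 118 snoRNA genes (18.6%) and 7 of 13 scaRNA genes (53.8%) rose and 0 fell. Of the genes listed by name, the number that rose was 3 without the oocytes of V1132 and 4 without egg 2 of V1145. Scarna10, which guides modification of spliceosomal RNA, had 4.19 to 9.91 CPM at GV and 35.9, 30.3 and 43.1 CPM at MII (2.58). Summed over the genes of the name list, these RNAs took 0.0185% ± 0.00556 of gene counts at GV and 0.0342% ± 0.00876 at MII (SD, n = 8 and 3). The exact permutation test over 8 classes gave an adjusted p of 0.0323. Mitochondrially encoded genes took 2.67% ± 1.00 at GV and 4.69% ± 0.738 at MII (adjusted p = 0.0485, exact permutation), with 4 of 22 genes called higher (18.2%, near the 15.0% of all genes). The 2 mitochondrial ribosomal RNAs led them, as mt-Rnr1 rose 2.44-fold and mt-Rnr2 2.36-fold, the latter from 3840, 7426 and 13672 CPM to 19021, 20521 and 13867 CPM. Ribosomal protein genes took 0.182% ± 0.0332 and 0.290% ± 0.0335, and replication-dependent histone genes took 0.192% ± 0.0441 and 0.280% ± 0.0271 (adjusted p = 0.0323 for each, exact permutation). The histone sum went up while the median of the 41 tested histone genes was -0.34. Small structured RNAs took 0.0252% ± 0.012 and 0.0449% ± 0.017 (adjusted p = 0.111, exact permutation) and rRNA-like genes 1.16% ± 0.28 and 1.70% ± 0.393 (adjusted p = 0.0582, exact permutation), and neither passed the threshold. The share of reads outside genes was 10.4% ± 1.16 and 11.5% ± 0.413 (adjusted p = 0.111, exact permutation). The genes with the highest counts, not corrected for length, included Zbed3, which had overlapping ranges of 7964 to 12292 and 9451 to 9597 CPM. The membrane linker gene Rdx rose by 0.30, with 3079 to 3563 CPM at GV and 3977, 3847 and 4277 CPM at MII.

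With polyA selection, control oocytes gave a different and often opposite picture. There 7961 of 12561 genes were called (63.4%), of which 3782 were higher at MII (30.1%) and 4179 lower (33.3%). Scaled by total counts alone, the split was 2507 higher and 5435 lower. Of 3275 genes called in both library types, 2348 (71.7%) changed in opposite directions. The stage by library type term was called for 7891 of 15910 genes (49.6%). The genes higher in total RNA had a median polyA change of -0.67, and the genes lower in total RNA had one of 0.56. Across the 12477 genes tested in both, Spearman's rho was -0.24, as a description with genes as points that share libraries. Among genes called in opposite directions with a mean of at least 5 on the log2 CPM scale in both library types, Cdc20 had the most negative difference (RiboMinus minus polyA, log2 -5.38), as its polyA level went from a mean of 82.3 to 327 CPM while its total RNA level fell. Trafd1 (-4.46), AU022751 (-4.42) and Hmgn3 (-4.05) followed. The Hmgn3 difference is uncertain, as its polyA means in the GV females V856 and V889 were 0.672 and 19.7 CPM, its total RNA ranges overlapped, and its change in the fit over 7 females was 0.23. On the other side, the respiratory chain genes Atp5e (7.40), Atp5j2 (6.77) and Cox4i1 (6.59) and the RNase P subunit gene Pop5 (6.72) rose in total RNA and fell after polyA selection. In total RNA, Atp5e had 15.6 to 47.8 CPM in GV oocytes and 108, 62.9 and 84.1 CPM in the eggs, whereas its polyA mean went from 195 to 3.46 CPM.

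Of 87 respiratory chain genes tested after polyA selection, 6 rose (6.90%, against 30.1% of all genes) and 78 fell (89.7%, against 33.3%), with a median of -3.01. Of 69 ribosomal protein genes, 2 rose (2.90%) and 62 fell (89.9%), with a median of -3.37. Transcript length moved with both results. In the shortest of 5 equal bins of protein-coding genes (105 to 1711 bases), 29.7% were higher and 10.9% lower in total RNA, with a median of 0.38 and a polyA median of -1.32. In the bin of the longest, from 5018 bases, 8.29% were higher and 20.9% lower, with a median of -0.19 and a polyA median of 0.29. For the shortest bin, the median difference between the GV females (V1133 minus V1132) was 0.11 and the median knockout change was 0.05. The part of transcript length in the results was not tested.

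Over all called genes, the CPE was more frequent in those lower in total RNA than in those higher. Of 9178 protein-coding genes with a usable 3′ end, 26.4% held it in the last 150 bases. A usable end has a 3′UTR of at least that length and a polyadenylation signal in the last 50 bases, so Cdc20, with a shorter 3′UTR, is not among them. The share was 36.8% of the 1745 genes lower in total RNA, 20.0% of the 1357 higher and 24.9% of those not called. It was 48.5% of the 909 genes that fell in total RNA and rose after polyA selection, and 12.1% of the 630 with the reverse pattern. The share was 29.7% of the 316 genes higher in both library types and 12.1% of the 257 lower in both. Among genes lower after polyA selection, it thus did not differ with the direction in total RNA. Genes with a CPE had a median change of -0.25 in total RNA and 0.61 after polyA selection, where tested there, against -0.05 and -0.15 without it. The Pumilio element TGTANATA was held by 7.18% of all these genes, 6.04% of those higher and 7.91% of those lower in total RNA. No test was made of these shares.

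**Figure D5:**
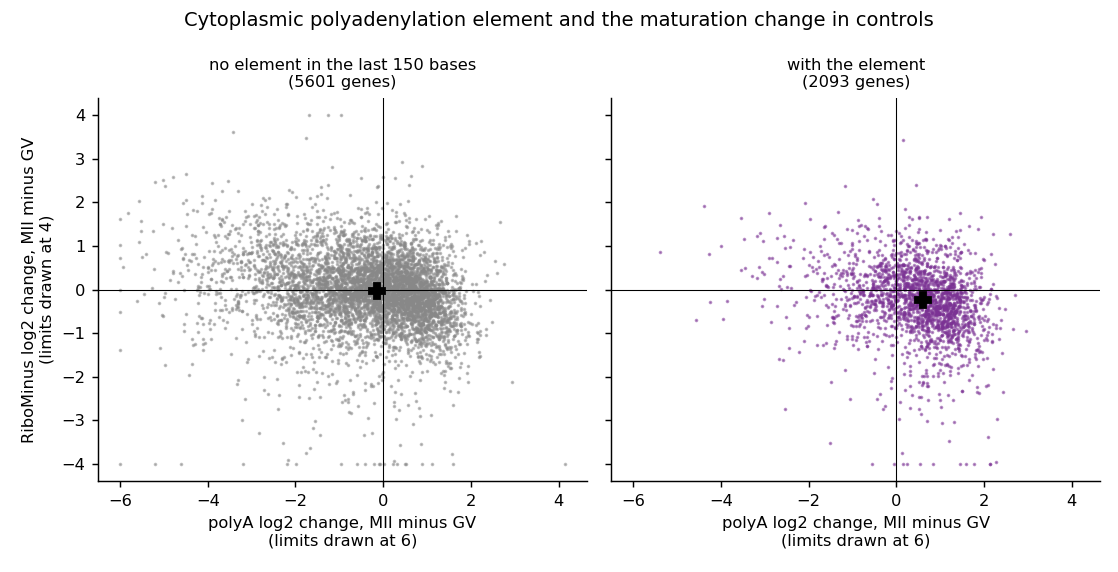
Change from GV to MII (log2) in control oocytes without polyA selection (vertical) against that with it (horizontal), 1 point per protein-coding gene, for genes without a CPE in the last 150 bases (left, grey) and with one (right, purple). Black crosses mark the medians, and the cross of genes with a CPE lies to the right of and below that of genes without.

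In the knockout oocytes sequenced without polyA selection, 2770 of 17234 genes were called (16.1%), of which 1275 were higher at MII (7.40%) and 1495 lower (8.67%). Of 997 genes called there and in controls, 828 changed in the same direction (83.0%), 314 up and 514 down. Of the 4946 control calls tested in the knockout, 66.1% had the same sign. The stage by genotype term was called for 2837 of 19110 genes (14.8%). The means of both knockout MII females lay below those of both knockout GV females for 26.2% of the 5382 genes of similar abundance (mean of at least 5 on the log2 CPM scale), and above them for 25.7%. Of the genes named with the largest falls in controls, 8 were lower in both knockout MII females than in both knockout GV females, including Cdc20, Kif20a, Prmt7, Spag5 and Mos, Tubb3 and Pacsin1 overlapped, and Lamc1 was higher. Of the 12 largest rises, Pdia3, Pfdn5, Gnrh1, Nedd8 and Pinlyp were higher in both knockout MII females and 7 overlapped, Me1, Gstm5 and Ldhb among them. Of 93 respiratory chain genes, 7 rose in the knockout (7.53%, near the 7.40% of all genes) and 0 fell (edgeR, 3 at an unadjusted p under 0.05), with a median of -0.13. Of 76 ribosomal protein genes, 2 rose (2.63%) and 6 fell (7.89%, near the 8.67% of all genes), with a median of -0.33. Of 54 snoRNA and scaRNA genes, 2 rose (3.70%) and 1 fell (1.85%), with a median of -0.49. Of 21 mitochondrially encoded genes, 7 rose (33.3%) and 0 fell, with a median of 0.94. Female means of mt-Rnr2 in the knockout were 6137 and 4884 CPM at GV and 6029 and 2922 CPM at MII.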

How the data were processed

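Single-oocyte libraries were made with ribosomal RNA depletion and random hexamer priming (Ovation Solo), or with oligo-dT beads, per the labels' protocols. The deposited values are whole-number counts per gene that the authors made. The submitters' processing notes name mm10, cutadapt 2.5, STAR 2.7.2a, SAMtools 1.9 and HTSeq 0.9.1. The strand setting, the treatment of duplicates and the annotation release are not given in the sources used here, so overlapping and antisense genes cannot be told apart.

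Genes were tested with edgeR 4.0.16 in R 4.3.3 (filterByExpr, TMM, quasi-likelihood F test, two-sided, Benjamini-Hochberg over all genes tested, threshold 0.05). Lines that name no gene stayed out. Class shares were tested by exact permutation. Symbols and 3′ ends came from GENCODE M21, in which 55480 of 55573 gene identifiers matched. Counts were also simulated without any difference between females, with 100 genes of a mean of at least 50 counts changed at each size. There the fit recovered 62.0% at a log2 change of 1 and 94.0% at 2, and called 5 of 15532 unchanged genes. This does not measure errors that come from having 1 MII female.

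Named genes were the 12 largest rises and 12 largest falls among called genes with a mean log2 CPM of at least 5 and all 3 eggs outside the range of the 8 oocytes, 3 each way among predicted names, 4 each way with the largest stage by library type term and opposite calls, the 8 with the highest counts per stage, and genes of the 25 lists. Of the 12 largest falls, 1 is not reported here. The genes, lists and comparisons were chosen with earlier results of these data known. Correlations of log2 CPM were 0.962 to 0.981 between GV oocytes and 0.931 to 0.933 between MII eggs. Between a GV oocyte and an MII egg they were 0.920 to 0.930, so the eggs were hardly closer to each other than to GV oocytes on this measure. No pair differed by as little as counting noise. Alternatives were other normalizations, filters, tests and fits by female, and leaving out each oocyte or female.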

Additional observations from a re-analysis of the deposited data

Results flagged for a closer look

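Among 55 values checked in the 8 control GV oocytes, 9 had 1 oocyte far from the others. There the gap to the nearest oocyte, over the range of all 8, passed 0.526 (Dixon's ratio). That cutoff flags about 1 in 20 for normally distributed values. The 55 values share the same 8 oocytes, so no excess over chance can be read from the 9. In oocyte 1 of V1133 the short mRNAs Tpt1 (20.89 CPM), Tmsb10 (23.14 CPM), Nedd8 (45.48 CPM) and Atp5e (47.79 CPM) stood above the other 7 oocytes, on the side of the MII eggs but below all 3 of them. In oocyte 4 of V1133, BC055324 was low at 79.37 CPM. In oocyte 4 of V1132, CT010467.1 was at 14123 CPM, Spin1 at 3866 CPM and the rRNA-like genes at 1.772% of gene counts. In oocyte 2 of V1132, 21790 genes had at least 1 count.

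The change from GV to MII differed between library types for the 8 genes chosen for that difference. Without polyA selection minus with it, the log2 difference was -5.38 for Cdc20, -4.46 for Trafd1, -4.42 for AU022751, -4.05 for Hmgn3, 7.40 for Atp5e, 6.77 for Atp5j2, 6.72 for Pop5 and 6.59 for Cox4i1, each called by the edgeR interaction term.

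Of the 23 genes named for the largest control changes, 19 had a called difference between the control and the knockout change without polyA selection. These genes were chosen as extremes in the controls, so a smaller knockout change is no independent result. Control minus knockout, the log2 differences among the rises were 3.52 for Gstm5, 2.76 for Swi5, 2.41 for Tpt1, 2.68 for Tmsb10, 1.48 for Pdia3, 2.31 for Ifitm6, 1.79 for Pfdn5, 2.47 for Ldhb, 1.52 for Nedd8 and 1.57 for Pinlyp. Among the falls they were -2.64 for Cdc20, -1.78 for Tubb3, -1.66 for Trafd1, -0.97 for Kif20a, -1.77 for Fbxl6, -0.81 for Rfwd3, -1.72 for Pacsin1, -3.29 for Lamc1 and -1.05 for Mos.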

How the results depend on the processing

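The count of 5042 genes was 5671 with DESeq2, 5035 with DESeq2's size factors in edgeR, 5039 with library totals, 5132 without a filter, 4563 above a mean of 50 counts, 6460 with counts summed per female, 7060 with limma voom and female as a random block, 3715 with all 4 total RNA groups in 1 fit, and 4478 to 4998 without 1 oocyte. The fit on summed counts has 1 MII sum against 2 GV sums, and the random block estimated a within-female correlation of -0.122, so neither measures the spread between MII females. The count was 3098 without V1132 and 3705 without V1133; the cause was not tested, though fewer samples enter. The 35 genes named by change kept direction and call in these fits. In the fit over 7 females the count was 104, and 5 genes of the lists without the Zfp genes were called in place of 303. It called 0 ribosomal protein genes and 0 respiratory chain genes higher. The CPE share of lower minus higher genes was 25.21 percentage points in place of 16.88. There 28 of the 35 lost their call and 5 kept it (Kif20a, Prmt7, Rfwd3, Spag5 and Gm28438), while Lamc1 (0.42) and Hmgn3 (0.23) reversed. Ribosomal protein genes called higher were 17 without V1132 in place of 26. Between the GV females DESeq2 called 62 genes in place of 22.

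Leaving out 1 MII egg gave share differences of 1.70 to 2.43 percentage points for mitochondrial genes, 0.0921 to 0.126 for ribosomal protein genes, 0.0106 to 0.0183 for snoRNA and scaRNA genes and 0.0790 to 0.103 for histone genes. Without V1132 they were 1.58, 0.0915, 0.0126 and 0.0581, and without V1133 2.47, 0.125, 0.0188 and 0.116. None then passed the threshold, and with 4 oocytes against 3 eggs no exact p below 0.0571 is possible. The rRNA-like share difference was 0.458 and passed with all lines as denominator, and that of ambiguous reads was -0.0111 without V1133. No paired analysis was possible because each female gave oocytes of 1 stage and the oocyte numbers name oocytes within a female. Depth limits the 1968 genes with a mean log2 CPM under 0, where 0 counts in 3 eggs show only that the gene was not detected.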
